A study of Mus musculus with 96 samples.

Results

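Aqp3 encodes aquaporin 3, the aquaglyceroporin of keratinocytes, and its messenger RNA was followed in mouse back-skin epidermis in which the circadian clock ran in different tissues. The gene was taken as the row Aqp3 of the 4 tables that hold one genotype each, which is 1 of 22497 genes. Its identifier in the annotation is ENSMUSG00000028435, and it lies on the minus strand of chromosome 4 from 41092722 to 41098183 (GRCm38, mm10), a span of 5462 bases with 6 exons in the main transcript. Polyadenylated RNA was sequenced from 96 libraries, 4 mice for each of 4 genotypes at 6 circadian times (CT, in hours) spaced 4 h apart. The mice were 8-week-old C57BL/6 females that had been in constant darkness for 156 to 176 h.

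RERE mice carried Arntl stopFL/stopFL with K14Cre tg/wt and Syt10-Cre tg/wt, so Arntl, which encodes the clock activator BMAL1, was restored in keratinocytes and in brain. EpiRE mice carried Arntl stopFL/stopFL with K14Cre tg/wt and Syt10-Cre wt/wt, which restores Arntl in keratinocytes. BRE mice carried Arntl stopFL/stopFL with K14Cre wt/wt and Syt10-Cre tg/wt, which restores Arntl in brain. WT mice carried Arntl wt/wt with K14Cre wt/tg and Syt10-Cre tg/wt, so both drivers were present in RERE and WT, 1 of them in EpiRE and BRE. K14Cre is driven by a keratin promoter of basal keratinocytes and their progeny, and Syt10-Cre by a promoter active in the brain's central clock and other neurons. Epidermal cells outside the keratinocyte lineage of RERE and EpiRE mice, and all epidermal cells of BRE mice, keep the stopped allele. Arntl itself averaged 3.89 log2 RPKM in RERE, 4.16 in EpiRE, 3.88 in BRE and 3.88 in WT, so the level of the whole gene did not check the genotype. Over all genes 6 libraries, 2 each of RERE, EpiRE and BRE, deviated from their group by more than 1.3 times the median library; results that turn on them are given with and without them.

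Aqp3 forms a pore in the plasma membrane that passes water and glycerol, and in cell studies hydrogen peroxide. It is the main aquaporin of the basal and lower suprabasal epidermis, and mice without it have dry skin with little glycerol in the stratum corneum. In keratinocytes the gene has been described as an output of the clock. Among the clock's output factors, Dbp, Tef and Hlf activate genes through D-boxes, and Nfil3 represses at the same sites. The factors BMAL1 and CLOCK drive Dbp and the REV-ERB genes Nr1d1 and Nr1d2 through E-boxes.

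What drives Aqp3 was not tested. The 250 bases before its start are shown as background (RefSeq, GRCm38.p6, chr4:41098184-41098433, minus strand, 5′ to 3′, with matches to the searched motifs in capitals).
Aqp3 promoter: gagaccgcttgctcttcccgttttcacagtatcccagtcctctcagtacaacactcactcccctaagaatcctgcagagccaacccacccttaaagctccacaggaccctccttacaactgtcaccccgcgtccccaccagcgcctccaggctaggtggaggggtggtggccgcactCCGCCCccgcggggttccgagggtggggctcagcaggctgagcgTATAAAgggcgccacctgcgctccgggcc
The capitals mark a GC box (GGGCGG, read here on the other strand) whose match starts 73 bases before the start, and a TATA box (TATAAA) whose match starts 29 bases before it. They do not overlap. Each of 7 motifs was searched on both strands over 300 bases, which add 50 bases after the start. TATAAA was present in 13.6% and GGGCGG in 35.7% of 32851 promoters of the same length. The D-box forms TTATGTAA and TTACGTAA had no match in the Aqp3 window and were held by 0.938% and 0.119% of promoters. The E-box CACGTG, its variant CACGTT and the nuclear receptor core site AGGTCA also had no match, against 7.15%, 4.68% and 16.3% of promoters. These letters are not in this window, which says nothing of sites elsewhere.

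Aqp3 was abundant. Its mean over 96 libraries was 6.01 log2 RPKM (reads per kilobase of gene per M reads, log2), a geometric mean of 64.6 RPKM, and single libraries lay between 42.2 and 120.7 RPKM. It ranked 747th by mean level among the 22497 genes, above 93.2% of the 11028 genes that averaged 1 RPKM or more. Between 896 and 3353 reads per library stood behind the values, with a median of 1695.5, in libraries that totalled 11.1 to 19.9 M reads. The pooled SD of the log2 values within times ran from 0.30 in WT to 0.42 in RERE, and the part of counting error in it was not tested. The labelled tissue was borne out by its markers. The basal keratin genes Krt5, Krt14 and Krt15 averaged 12.5, 11.4 and 11.9 log2 RPKM, and no fibroblast, endothelial or adipocyte marker of the lists reached a mean of 0 log2 RPKM. Of the muscle and red blood cell markers, Mylpf averaged 1.35 and Hbb-bs 0.07 log2 RPKM, and the others in the tables lay under 0. Since cells were not separated, fewer cells of a type and less RNA per cell cannot be told apart.

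Of the 12 aquaporin genes in the tables, 2 reached the minimum of a mean of 0 log2 RPKM (1 RPKM) for testing. Aqp9, another aquaglyceroporin, followed Aqp3 with a mean of 0.89 log2 RPKM and a median of 85.5 reads. The water channel Aqp11 of intracellular membranes averaged -2.50 log2 RPKM with a median of 4 reads, and the aquaglyceroporin Aqp7 -2.63 log2 RPKM with a median of 7 reads. Aqp1, Aqp5 and Mip had medians of 3, 1 and 1 reads. Aqp2, Aqp4, Aqp6, Aqp8 and Aqp12 had 0 reads in at least 90 of 96 libraries. The floor that stands for 0 reads differs slightly between the tables of the 4 genotypes, so differences among genotypes at such levels carry no information. Aqp3 thus stood alone in this tissue as the family member with a high transcript level.

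**Figure D1:**
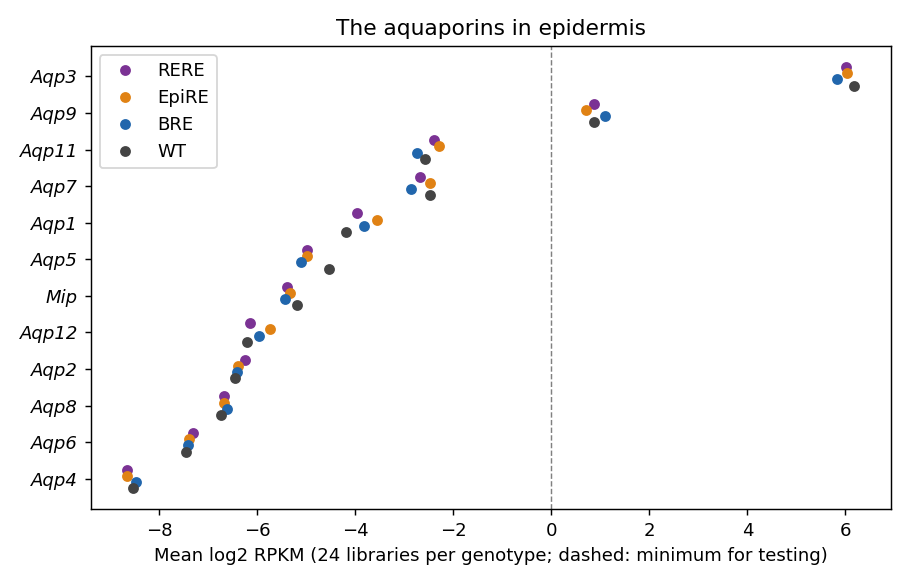
Mean log2 RPKM of the 12 aquaporin genes (points, 24 libraries per genotype), with genes ordered from high at the top to low, and a dashed line at 0 log2 RPKM, the minimum mean for testing. Aqp3 lies near 6 in all 4 genotypes, Aqp9 near 1, and the other 10 genes lie left of the line.

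In RERE epidermis Aqp3 varied between mice and showed no common time of day. At CT0 the 4 mice had 5.60, 6.58, 6.64 and 6.00 log2 RPKM, and at CT4 6.03, 6.14, 6.06 and 5.60. The values at CT8 were 5.87, 5.91, 6.58 and 6.01, and at CT12 6.01, 6.30, 5.67 and 5.41. The highest time mean was 6.21 ± 0.49 (SD, n = 4) at CT0 and the lowest 5.79 ± 0.26 (SD, n = 4) at CT20. At CT16 the mice had 5.74, 6.86, 6.51 and 5.42 log2 RPKM, the widest spread of the genotype. CT20 gave 5.43, 6.01, 5.79 and 5.94. Mice of 1 time covered nearly the whole range of the genotype, and the 6 times overlapped.

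EpiRE epidermis gave a similar picture. Its CT0 values were 5.85, 5.85, 6.16 and 5.62 log2 RPKM, and its CT4 values 6.78, 6.05, 6.40 and 6.00. At CT8 they were 6.86, 6.06, 5.49 and 5.64, so the highest and the lowest library of EpiRE came from 1 time. The mice of CT12 had 5.62, 6.10, 5.91 and 6.06 log2 RPKM, and those of CT16 5.95, 5.89, 6.10 and 6.00. At CT20 they had 6.05, 6.42, 6.07 and 5.90. The highest time mean was 6.31 ± 0.36 (SD, n = 4) at CT4 and the lowest 5.87 ± 0.22 (SD, n = 4) at CT0, 1 step earlier.

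BRE epidermis had lower time means than WT at 5 of 6 times, and the lowest of the 4 genotypes at CT8 and CT16. EpiRE means also lay below WT means at 5 of 6 times, and RERE means at 4. At CT0 its mice had 5.48, 5.98, 5.64 and 6.41 log2 RPKM. The CT4 mice had 5.81, 5.82, 6.92 and 5.87, of which the third is the highest library of all 96. CT8 gave 5.83, 5.49, 5.50 and 5.68, the lowest time mean of BRE and of the whole series (5.63 ± 0.16, SD, n = 4). The 4 values of CT12 were 5.96, 6.08, 5.73 and 5.63 log2 RPKM, and those of CT16 5.79, 6.16, 5.77 and 5.43. At CT20 they were 6.20, 6.07, 5.42 and 5.40, of which the last is the lowest library of all.

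WT epidermis was high around CT4 and CT8 and low at CT20. Its mice had 6.02, 6.15, 5.96 and 6.74 log2 RPKM at CT0, and 6.16, 6.51, 6.43 and 6.62 at CT4. At CT8 they had 6.19, 6.50, 6.35 and 6.78, a mean of 6.46 ± 0.25 (SD, n = 4) or 87.7 RPKM. CT12 gave 6.27, 6.19, 6.34 and 6.00, and CT16 gave 6.09, 6.64, 5.61 and 5.89. At CT20 the mice had 6.09, 5.85, 5.43 and 5.43, a mean of 5.70 ± 0.33 (SD, n = 4) or 52.0 RPKM. Every WT mouse at CT4 and CT8 lay above every WT mouse at CT20. The time means of WT spanned 1.69-fold, against 1.33-fold in RERE, 1.36-fold in EpiRE and 1.39-fold in BRE.

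**Figure D2:**
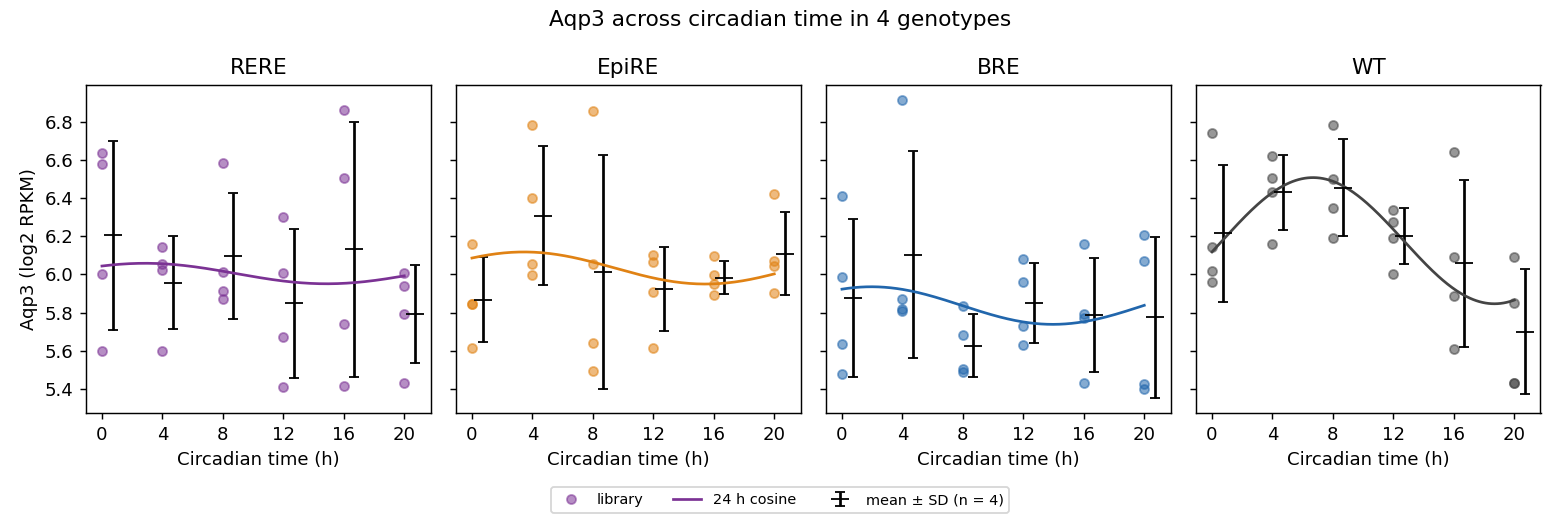
Aqp3 in log2 RPKM against circadian time in hours in RERE, EpiRE, BRE and WT, with a coloured point per library (n = 4 per time), black bars for the mean ± SD and a line for the fitted 24 h cosine. The WT line has an amplitude of 0.33 and peaks at CT 6.69, while the lines of the other genotypes have amplitudes of 0.05 to 0.10.

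Rhythm was tested with a 24 h cosine in each genotype over its 24 libraries (limma, moderated F test, Benjamini-Hochberg adjusted over all genes tested). The amplitude (log2 units, from the mean to the peak of the curve) was 0.05 ± 0.11 (SE) in RERE, with an adjusted p of 0.927, and 0.17 (adjusted p = 0.440) without the 2 RERE libraries among the 6 that deviated most. Leaving out the RERE mice of 1 number gave amplitudes of 0.02 to 0.14, with no call. EpiRE had 0.08 ± 0.09 (adjusted p = 0.874), and the amplitude of BRE was 0.10 ± 0.10 (adjusted p = 0.793). In WT it was 0.33 ± 0.08 (adjusted p = 0.00971, unadjusted p = 0.00150), a trough-to-peak change of 1.58-fold with a peak at CT 6.69 ± 0.93 h (SE). Aqp3 therefore passed the test in WT and did not pass it in the other three genotypes. The share of all tested genes that passed was 19.4% in RERE, 0% in EpiRE, 1.14% in BRE and 33.1% in WT. The WT amplitude of Aqp3 ranked 789th of 11087 genes and was larger than that of 83.3% of the genes called in WT. With circadian time as a factor of 6 levels, over the same WT libraries, the adjusted p was 0.0502. Without the WT mice numbered 3 the amplitude was 0.27 (adjusted p = 0.0937), and without those numbered 4 it was 0.26 (adjusted p = 0.0558). It was 0.42 and 0.39 without those numbered 1 and 2, and the call was kept.

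The difference in rhythm between genotypes did not pass in any of 6 pairs. RERE minus WT in amplitude was -0.28 ± 0.14 (SE of the difference; adjusted p of the joint test of cosine and sine = 0.751, unadjusted p = 0.116), where 0% of genes passed. EpiRE minus WT in amplitude was -0.25 ± 0.12 (adjusted p = 0.390, unadjusted p = 0.0895), where 1.57% of genes passed. For BRE minus WT it was -0.23 ± 0.13 (adjusted p = 0.293, unadjusted p = 0.0673), where 5.69% of genes passed. These 3 comparisons share the WT libraries. The 3 pairs among RERE, EpiRE and BRE had adjusted p-values of 0.984 to 0.993, where 1.05% (RERE and EpiRE), 4.19% (RERE and BRE) and 0% (EpiRE and BRE) of genes passed. Without the 6 libraries that deviated most, the joint test gave adjusted p of 0.761 (RERE), 0.127 (EpiRE) and 0.104 (BRE) against WT. Leaving out the mice of 1 number, it gave 0.0639 to 0.808 for EpiRE minus WT and 0.339 to 0.549 for BRE minus WT. A rhythm of Aqp3 in WT alone was thus not shown by a test of the difference.

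The authors' own rhythm programs differed on WT at a q-value of 0.05. In the authors' deposited table of JTK_CYCLE the q-value of Aqp3 was 1 in RERE, 1 in EpiRE, 1 in BRE and 0.0225 in WT, with a WT peak at 8 h. In the authors' deposited table of BIOCYCLE the q-value was 0.992 in RERE, 0.779 in EpiRE, 0.858 in BRE and 0.111 in WT, with a WT peak at 6.75 h and a p-value of 0.00955. The per-library codes of JTK_CYCLE are out of order for EpiRE and BRE. Whether its q-values for these genotypes rest on the times used here cannot be told.

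The D-box factors and the E-box clock genes give the clock state in which these values were taken. Dbp oscillated in RERE with an amplitude of 2.82 ± 0.23 peaking at CT 10.3 and in WT with 2.85 ± 0.18 peaking at CT 9.39 (adjusted p = 2.64e-08 and 1.26e-10, limma). Tef had amplitudes of 1.46 ± 0.12 in RERE and 1.46 ± 0.10 in WT, Hlf 0.53 ± 0.08 in RERE and 0.52 ± 0.05 in WT, and the repressor Nfil3 0.90 ± 0.20 in RERE and 0.73 ± 0.19 in WT. Nfil3 peaked at CT 22.1 in RERE and at CT 23.6 in WT, far from Dbp. All 4 D-box factors and all 10 E-box clock genes passed in RERE and in WT. In EpiRE, where 0% of all genes passed, none of the 14 did, with amplitudes of 0.68 ± 0.26 for Dbp and 0.51 ± 0.16 for Nr1d1. Among the 14 genes in BRE, Per1 passed (0.66 ± 0.13, adjusted p = 0.0281), and Dbp had an amplitude of 0.13 ± 0.06. In WT the Aqp3 peak at CT 6.69 lay next to that of Nr1d1 at CT 7.11 ± 0.20 and ahead of the Dbp peak.

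**Figure D3:**
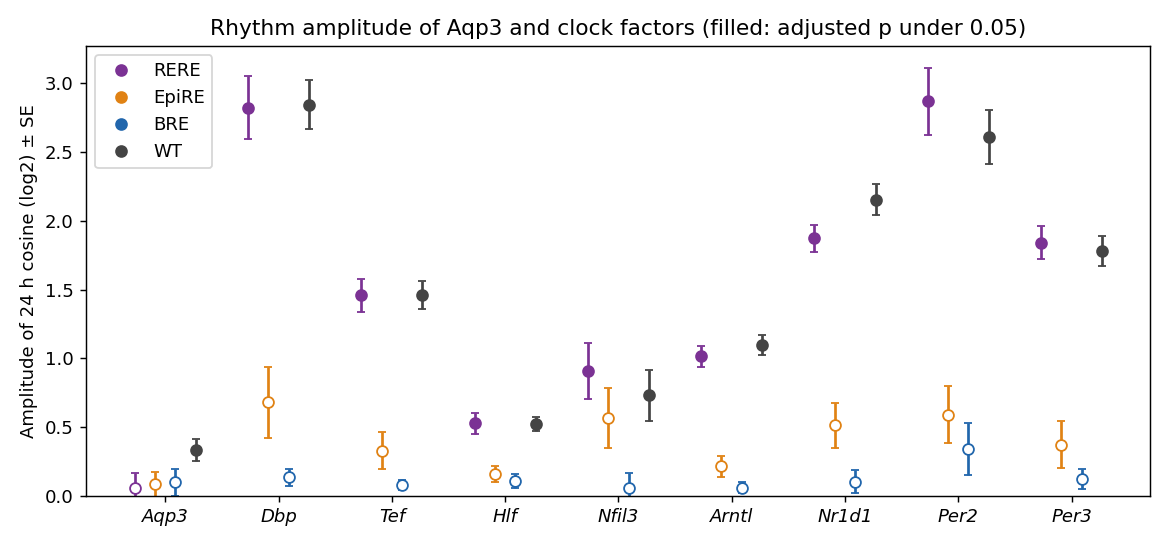
Amplitude of the fitted 24 h cosine on the log2 scale (± SE) of Aqp3, the D-box factors and 4 clock genes in RERE, EpiRE, BRE and WT, filled where the adjusted p was under 0.05, with error bars cut at 0. RERE and WT points lie close together for the clock genes, and for Aqp3 only the WT point is filled.

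The level over all times was lowest in BRE. BRE libraries ran from 5.40 to 6.92 log2 RPKM with a median of 5.80, and WT libraries from 5.43 to 6.78 with a median of 6.17. The mean was 5.84 ± 0.36 (SD, n = 24) in BRE and 6.18 ± 0.37 (SD, n = 24) in WT, so the ranges overlapped widely. With circadian time in the model, Aqp3 fell by 0.34 ± 0.10 on the log2 scale in BRE (SE; 95% interval -0.53 to -0.15; adjusted p = 0.00456, limma), to 0.790 times the WT level. In this comparison 36.9% of the 11016 genes tested were called, 24.4% lower and 12.5% higher, so a call of this kind was common. BRE means were lower than WT means at 5 of 6 times, by the most at CT8 (5.63 in BRE and 6.46 in WT). At CT8 the 4 BRE mice and the 4 WT mice did not overlap. Overlap was looked at in 6 pairs of genotypes at 6 times, and the share of all genes without overlap was not counted. A lack of overlap is therefore given as a description alone. At CT20 the BRE mean was 5.78 and the WT mean 5.70.

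RERE and EpiRE lay between BRE and WT. RERE libraries ran from 5.41 to 6.86 log2 RPKM with a median of 6.01 and a mean of 6.00 ± 0.41 (SD, n = 24). EpiRE libraries ran from 5.49 to 6.86 with a median of 6.02 and a mean of 6.03 ± 0.33 (SD, n = 24). RERE minus WT was -0.17 ± 0.10 (SE; 95% interval -0.38 to 0.03; adjusted p = 0.478), where 2.14% of genes passed. EpiRE minus WT was -0.14 ± 0.09 (SE; 95% interval -0.33 to 0.04; adjusted p = 0.696), where 2.23% of genes passed. At CT4 the 4 RERE mice did not overlap the 4 WT mice, and EpiRE overlapped WT at every time. RERE minus EpiRE was -0.03 ± 0.11 (SE; 95% interval -0.24 to 0.18; adjusted p = 0.988), where 0.00906% of genes passed.

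RERE minus BRE was 0.17 ± 0.11 (SE; 95% interval -0.05 to 0.39; adjusted p = 0.254), where 27.5% of genes passed. At CT8 the 4 RERE mice did not overlap the 4 BRE mice. EpiRE minus BRE was 0.20 ± 0.09 (SE; 95% interval 0.01 to 0.38; adjusted p = 0.0965), where 34% of genes passed. This was no call. The adjusted p of EpiRE against BRE was 0.0306 without the BRE library of CT4 that stood far above its group, a library picked by its Aqp3 value. It was 0.0377 without the 6 libraries that deviated most, which include that same library. Leaving out all mice numbered 3, that library among them, gave an adjusted p of 0.170. In the order BRE, RERE, EpiRE and WT from low to high, no neighbouring pair passed the test, and of the 6 pairs BRE against WT did, by a difference smaller than the SD of either genotype. Leaving out the mice of 1 number gave -0.29 to -0.06 for RERE minus WT, -0.21 to -0.07 for EpiRE minus WT and 0.10 to 0.25 for RERE minus BRE, with no call. Aqp9 had mean levels of 1.10 log2 RPKM in BRE and 0.88 in WT, a difference of 0.22 ± 0.13 (SE; adjusted p = 0.178).

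**Figure D4:**
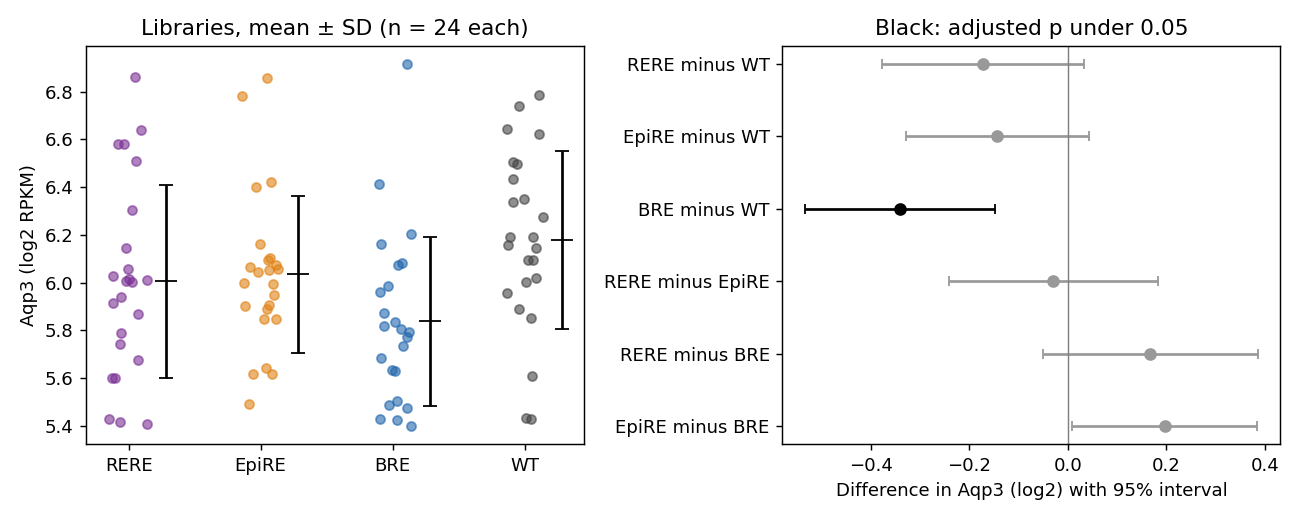
Left, Aqp3 in log2 RPKM in each library of RERE, EpiRE, BRE and WT with the mean ± SD (n = 24 each). Right, the 6 differences between genotypes on the log2 scale with 95% intervals from limma; BRE minus WT, at -0.34, is the interval drawn in black, for an adjusted p under 0.05.

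Markers of several epidermal compartments differed between BRE and WT. Of the 4 hair follicle markers tested, 3 were lower in BRE, where 24.4% of all genes were, and none was higher, with a median difference of -0.60 against -0.05 over all genes tested. Cd34, 1 of the 3, averaged -0.19 log2 RPKM in BRE and 0.77 in WT. It reached the minimum for testing through WT, so the count and the median lean in part on that filter. Lhx2, a transcription factor of hair follicle stem cells, averaged 1.66 log2 RPKM in BRE and 2.60 in WT (adjusted p = 3.67e-07, limma). Sox9, a transcription factor of the bulge and outer root sheath, averaged 3.80 log2 RPKM in BRE and 4.07 in WT (adjusted p = 0.0225). The summed level of the 6 hair follicle genes ran from 8.04 to 9.29 (log2 of summed RPKM, median 8.50) in BRE and from 8.15 to 9.34 (median 8.82) in WT. Krt17, a keratin of the follicle's outer root sheath, made up most of this sum, with a geometric mean of 366 RPKM over all libraries against 14.7 for Sox9, and it was the tested marker that did not pass between BRE and WT (adjusted p = 0.101, limma). In EpiRE 2 of 4 tested hair follicle markers were lower than in WT, and in RERE 0 of 5, with summed medians of 8.51 in RERE (7.86 to 9.36) and 8.47 in EpiRE (7.95 to 9.05). The share of all genes called in either direction was 2.23% in EpiRE and 2.14% in RERE. Of the 6 genes, Lgr5 and Krt75 stayed under a mean of 1 RPKM over all libraries. Suprabasal keratinocyte genes were called higher in BRE for 8 of 10, against 12.5% of all genes, and lower for none, with a median difference of 0.36. Krt1, an early differentiation keratin, averaged 11.3 log2 RPKM in RERE, 11.3 in EpiRE, 11.2 in BRE and 10.8 in WT, so it was higher than in WT in each of the other three genotypes. Basal keratinocyte genes were lower in BRE for 2 of 8, with a median of -0.09. Of the 5 melanocyte markers 2 were tested, and both were lower in BRE. Pmel averaged 0.95 log2 RPKM in BRE and 1.42 in WT. Dct, at -0.32 in BRE and 0.34 in WT, reached the minimum for testing through WT, so its call carries no weight. Of 5 T cell markers 2 were lower and 1 was higher in BRE (median -0.20), and of 5 Langerhans and myeloid markers 1 was lower (median -0.34). Of 4 sebaceous gland markers 1 was higher in BRE. The part of these markers in the lower Aqp3 of BRE was not tested.

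Within RERE and BRE, mice with more hair follicle marker RNA than others of their time also had more Aqp3, and in EpiRE and WT the relation did not pass. Deviations of Aqp3 from the mean of its 4 mice were set against those of the mean of 4 hair follicle genes with at least 1 RPKM (Lhx2, Sox9, Cd34 and Krt17) over 24 libraries per genotype. Pearson's r was 0.71 in RERE (Spearman's rho 0.70), 0.53 in EpiRE (rho 0.45), 0.85 in BRE (rho 0.88) and 0.39 in WT (rho 0.44). By permutation within times (two-sided, 100000 resamples, Benjamini-Hochberg over 24 relations of 6 marker lists), the adjusted p for r was 0.0223 in RERE, 0.103 in EpiRE, 0.00024 in BRE and 0.141 in WT. The unadjusted p for r was 0.00205 in RERE, 0.0295 in EpiRE, 1e-05 in BRE, the smallest these permutations can give, and 0.0470 in WT. For rho the adjusted p was 0.0433 in RERE, 0.189 in EpiRE, 0.00024 in BRE and 0.189 in WT, and the unadjusted p was 0.00361 in RERE, 0.0657 in EpiRE, 1e-05 in BRE and 0.0575 in WT. Without the 2 libraries farthest from the median of the marker mean, r was 0.64 in RERE, 0.49 in EpiRE, 0.88 in BRE and 0.30 in WT. Sox9 followed Aqp3 most closely of the 4 genes (r = 0.80 over the deviations of 96 libraries), and Krt17, Cd34 and Lhx2 had r of 0.67, 0.48 and 0.35. The middle 95% of all genes ran from -0.44 to 0.52 over the same deviations, so Cd34 and Lhx2 lay inside that range. The permutations did not set the marker mean against other genes, so they do not show a relation particular to the hair follicle. Differences in r between genotypes were not tested.

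**Figure D5:**
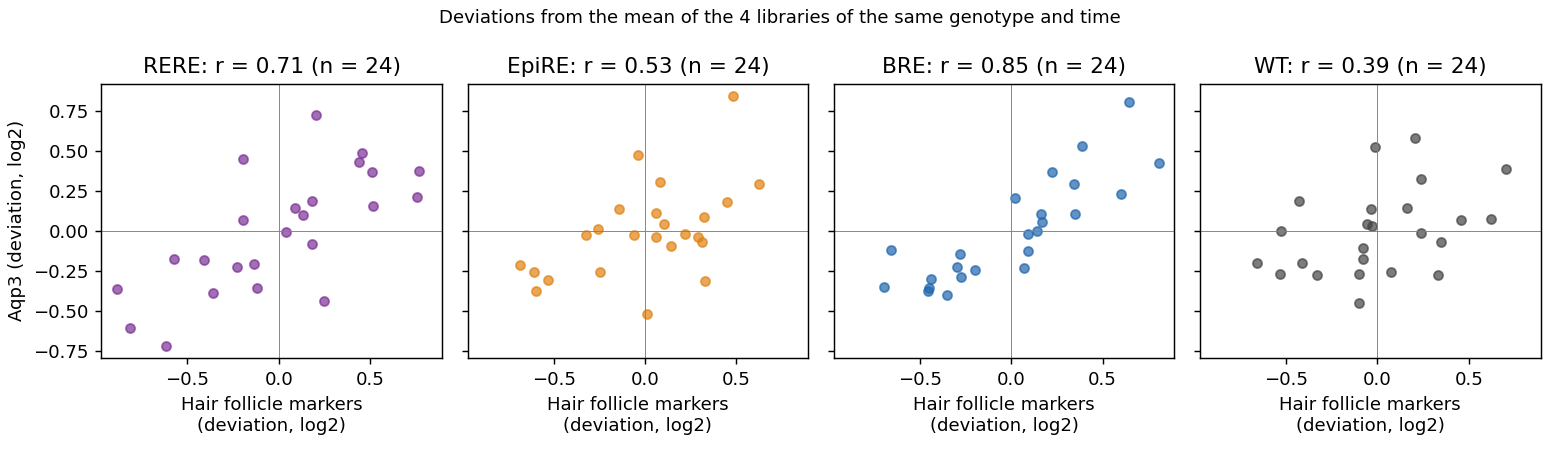
Deviation of Aqp3 (log2) against that of the mean of 4 hair follicle markers (log2), each from the mean of the 4 libraries of its genotype and time, with a point per library in RERE, EpiRE, BRE and WT (n = 24 each). The value of r is 0.71 in RERE, 0.53 in EpiRE, 0.85 in BRE and 0.39 in WT.

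Among the other 5 lists, sebaceous gland markers ran against Aqp3 in BRE (r = -0.66, adjusted permutation p = 0.0223, rho = -0.57, adjusted permutation p = 0.0559), with r of -0.57 in RERE, 0.17 in EpiRE and -0.28 in WT. No other relation passed. The values of r ran from 0.18 to 0.54 for basal and from -0.57 to -0.21 for suprabasal keratinocyte markers, from -0.07 to 0.11 for T cell and from -0.48 to 0.10 for Langerhans and myeloid markers. The hair follicle mean in WT was 4.15, 4.24 and 4.25 log2 RPKM at CT0, CT4 and CT8, and 3.93, 3.90 and 3.72 at CT12, CT16 and CT20. Of 5 hair follicle genes tested for rhythm in WT, against 33.1% of all genes, 1 passed, Cd34 (amplitude 0.81 ± 0.25, peak at CT 4.53, adjusted p = 0.0405, limma), and Sox9 had 0.20 ± 0.08 with a peak at CT 7.05 (adjusted p = 0.105). The part of the hair follicle markers in the WT rhythm of Aqp3 was not tested.

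Genes whose products work with an aquaglyceroporin did not move as a block. Among 15 tested genes of glycerol and triglyceride metabolism, 4 passed the rhythm test in RERE, 0 in EpiRE, 1 in BRE and 6 in WT, against 19.4%, 0%, 1.14% and 33.1% of all genes. In WT these included Gpam, a glycerol-3-phosphate acyltransferase (0.44 ± 0.06, peak at CT 12.4), Gpd2, the mitochondrial glycerol-3-phosphate dehydrogenase (0.17 ± 0.04, peak at CT 17.4), and Gk, the glycerol kinase that traps glycerol in the cell (0.25 ± 0.06, peak at CT 20.1). None of the 3 peaked near the Aqp3 peak. In BRE, 4 of the 15 were higher and 4 lower than in WT, against 12.5% and 24.4% of all genes, with a median difference of -0.04 against -0.05 over all genes. Dgat2, which makes triglycerides, averaged 6.63 log2 RPKM in BRE and 6.14 in WT (adjusted p = 1.13e-07, limma), and Pnpla2, the lipase that starts their breakdown, 3.62 in BRE and 3.79 in WT (adjusted p = 3.00e-05). Abhd5, the co-activator of Pnpla2, averaged 5.33 log2 RPKM in BRE and 5.14 in WT (adjusted p = 2.06e-06).

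Of 11 ion transport genes 3 passed the rhythm test in RERE, 0 in EpiRE, 0 in BRE and 7 in WT, against 19.4%, 0%, 1.14% and 33.1% of all genes. Among those of WT were the sodium pump subunits Atp1b3 (0.22 ± 0.04, peak at CT 1.64) and Atp1b1 (0.44 ± 0.10, peak at CT 17.8) and the kinase Sgk1 (0.26 ± 0.06, peak at CT 10.1). In BRE, 2 of the 11 rose and 4 fell, against 12.5% and 24.4% of all genes. Scnn1a, the alpha subunit of the epithelial sodium channel, averaged 4.35 log2 RPKM in BRE and 4.62 in WT (adjusted p = 0.000128, limma). Of 6 osmotic response genes 2 passed the rhythm test in RERE, 0 in EpiRE, 0 in BRE and 2 in WT, set against the same rhythm shares of all genes. The taurine transporter Slc6a6 oscillated in RERE with an amplitude of 0.69 ± 0.10 and in WT with 0.75 ± 0.07. Slc6a6 also averaged 5.72 log2 RPKM in BRE and 6.25 in WT (adjusted p = 1.49e-05), and Nfat5, the osmotic stress factor, 4.41 in BRE and 4.21 in WT (adjusted p = 0.00125). In BRE 2 of the 6 rose and 3 fell, against 12.5% and 24.4% of all genes.

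Genes of water binding gave 2 of 8 rhythmic in RERE, 0 in EpiRE, 1 in BRE and 2 in WT, against 19.4%, 0%, 1.14% and 33.1% of all genes. Has3, a hyaluronan synthase, oscillated in WT with an amplitude of 0.31 ± 0.08 and was lower in BRE, at 0.57 log2 RPKM against 1.25 in WT (adjusted p = 1.78e-05, limma). Of these 8 genes 3 rose and 1 fell in BRE, against 12.5% and 24.4% of all genes, and Blmh, which breaks down filaggrin products, averaged 6.14 log2 RPKM in BRE and 5.85 in WT (adjusted p = 4.47e-05). Of 8 hydrogen peroxide genes 3 passed the rhythm test in RERE, 0 in EpiRE, 1 in BRE and 2 in WT, and 1 rose and 2 fell in BRE, set against the same shares. Prdx6, a peroxiredoxin, averaged 5.86 log2 RPKM in BRE and 6.29 in WT (adjusted p = 7.92e-12), and Duox1, an oxidase that makes hydrogen peroxide, 1.96 in BRE and 1.44 in WT (adjusted p = 0.000533). The median differences between BRE and WT were 0.03 for ion transport, -0.01 for osmotic response, 0.02 for water binding and 0.01 for hydrogen peroxide genes, against -0.05 over all genes.

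The genes whose 24 group means (4 genotypes by 6 times) ran most like those of Aqp3 were Pdlim4 (r = 0.81), Slc39a13 (r = 0.79), Map3k14 (r = 0.78), Nradd (r = 0.77), Rras (r = 0.77), Fcf1 (r = 0.76), Reep5 (r = 0.76) and Aurkaip1 (r = 0.75), of 11027 genes compared. The middle 95% of all genes ran from -0.58 to 0.60. The group means share libraries, times and depth across genes, so these values describe likeness alone. The genes were picked by these same means, so WT peaks and BRE levels like those of Aqp3 come with the choice and are no separate result. Pdlim4, a PDZ and LIM domain protein of the actin cytoskeleton, had a WT amplitude of 0.34 ± 0.07 peaking at CT 6.00 and averaged 2.37 log2 RPKM in BRE and 2.91 in WT. Rras, a small GTPase, had a WT amplitude of 0.39 ± 0.06 peaking at CT 6.71, next to the Aqp3 peak. Over deviations from the group mean (n = 96 libraries) r ran from 0.45 for Aurkaip1 to 0.73 for Reep5 among the 8 genes, where the middle 95% of all genes ran from -0.44 to 0.52. Running most unlike Aqp3 were Tmem123 (r = -0.79), Pof1b (r = -0.79) and Cobl (r = -0.78). They peaked in WT between CT 17.8 and CT 18.4 and were higher in BRE, which their choice likewise favours. Of the 14 D-box and E-box clock genes over the same 24 means, 3 lay outside that range, Nr1d1 with r = 0.65, Clock with r = -0.75 and Cry1 with r = -0.68. The other 11 ran from -0.48 (Npas2) to 0.57 (Nr1d2), with 0.47 for Dbp.

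The next genes on the chromosome are given for position, and their difference from Aqp3 was not tested. Aqp7 on the one side had a mean of -2.63 log2 RPKM and was not tested, and the snRNA Gm25637 was not in the tables. Nol6, a nucleolar protein gene that starts 16244 bases beyond Aqp3, had a WT amplitude of 0.02 ± 0.04 (adjusted p = 0.877, limma) and averaged 3.94 log2 RPKM in BRE and 4.04 in WT (adjusted p = 0.0202). Ube2r2, a ubiquitin-conjugating enzyme gene 37838 bases away, had a WT amplitude of 0.17 ± 0.03 (adjusted p = 0.000886) and averaged 4.58 log2 RPKM in BRE and 4.64 in WT (adjusted p = 0.141).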

How the data were processed

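The deposited values used here are log2 RPKM per library, made by the authors and held in 4 tables, 1 per genotype, of the rhythm program BIOCYCLE; per the file headers each column names a CT and a replicate. The authors' p-value and q-value, amplitude (log2) and peak time (h) for Aqp3 were copied from their BIOCYCLE and JTK_CYCLE tables. Reads were trimmed, aligned to mm10 and counted by the authors with tools that the submitters' processing notes list as featureCounts 1.6.0, HISAT2 2.2.1, edgeR (version not given), Trimmomatic 0.36 and SAMtools 1.3.1. The sources used here do not give strand settings or whether the molecular identifiers were used. A further 96 per-library columns of the JTK_CYCLE tables, whose codes match no label, were not used. These codes are out of order for EpiRE and BRE, so the CT of these genotypes rests on the BIOCYCLE column names.

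Whole reads were recovered from the log2 values for 99.9% of genes (tolerance 0.1 read, with a prior of 0.25 reads), and served for depth and for limma-voom. The prior is scaled within each genotype's table, so each table has its own floor. Tests used limma 3.58.1 in R 4.3.3 on genes averaging 0 log2 RPKM or more over the libraries compared. They were a moderated F test of a 24 h cosine and sine within a genotype, the same for the difference between 2 genotypes, and a genotype term beside CT as a factor for level, with Benjamini-Hochberg adjusted p under 0.05 called. Of these, the rhythm in WT and the rhythm and level of BRE minus WT were tried on simulated data. The other genotypes and pairs and the permutation tests were not. No rate of recovery is given here for a change of the size seen in Aqp3. The labels call the 4 mice per group biological replicates, and same-numbered libraries of different genotypes were not paired by the labels.

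The member and the gene lists were chosen with earlier results of these data known. Genes named are Aqp3, the aquaporins, up to 3 members of each list with the smallest p, the D-box and E-box factors, the 8 genes most and 3 least like Aqp3 over 24 group means, and 2 neighbours on each side. The clock genes set against Aqp3 by likeness, and the other members of a list named where its count is 5 or fewer, were singled out after their values were seen. Alternatives were other scaling, filters, pseudocount, a block, voom and leaving out mice.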

Additional observations from a re-analysis of the deposited data

Results flagged for a closer look

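In 1 of 24 groups a single library of Aqp3 stood far from the other 3. At CT4 the BRE mouse numbered 3 had 6.92 log2 RPKM while the others had 5.81, 5.82 and 5.87, a gap of 0.940 of the group's range and past Dixon's 95% critical value for 4 samples. Chance alone flags about 1 in 20 groups, so 1 of 24 is near that rate. The same library deviated from its group over all genes by 1.34 times the median library. Without it, Aqp3 in BRE was lower than in WT by 0.38 on the log2 scale (adjusted p = 0.000815, limma), and the EpiRE and BRE levels differed by 0.24 (adjusted p = 0.0306).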

How the results depend on the processing

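Of 209 alternative results over 16 tests of Aqp3, 201 kept their side of the threshold and, for tests of level, their direction. Tests of rhythm were compared by adjusted p alone. Uncalled peaks moved, in BRE from CT 1.95 to CT 21.3 without the BRE library of CT4 replicate 3. The lower level in BRE than in WT passed in every alternative run, from -0.39 to -0.28, with limma-adjusted p of 0.000815 to 0.0332. Its permutation test of Aqp3 alone gave p = 0.00181. The WT rhythm lost its call with CT as a factor (adjusted p = 0.0502) and in 2 of the 4 fits that left out a replicate number (range 0.0155 to 0.0937); with the other alternatives its adjusted p was 0.00509 to 0.0238. EpiRE minus BRE gained a call without the 6 libraries that stand apart (0.21) and without the BRE library of CT4 replicate 3 (0.24), both chosen after seeing the data. A permutation test of EpiRE minus BRE for Aqp3 alone (0.20, p = 0.0472) is unadjusted, beside an unadjusted limma p of 0.0399, and is no gained call; leaving out a replicate number gave 0.15 to 0.22, with no call. RERE minus EpiRE changed sign when a replicate number was left out (-0.12 to 0.10), with no call. The cause was not tested.

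The labels pair no samples. The correlation of same-numbered deviations between genotypes ran from -0.21 to 0.31 and was over 0.1 in 4 of 24. Between BRE and WT it was 0.31, 0.10, 0.21 and 0.01 for the numbers in order. Differently numbered libraries were not compared, so these values cannot show whether the numbers pair mice. With the replicate number as a block the adjusted p of the WT rhythm was 0.0104, BRE minus WT stayed at -0.34 (adjusted p = 0.00517), no call on Aqp3 changed, and genes called rhythmic in BRE went to 41 with the block, against 125.

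Counts over all genes, which serve as background, moved more. Without the filter on low values, genes called by level were 4310 against 236 (RERE and WT), 4303 against 247 (EpiRE and WT) and 8585 against 4066 (BRE and WT), since genes at a floor that differs between tables were then tested. Rhythmic genes with CT as a factor were 2249 against 3675 in WT and 199 against 0 in EpiRE; leaving out a replicate number gave as few as 2019 in WT, 875 against 2136 in RERE and 0 against 125 in BRE. Aqp3 had 896 reads or more in every library, and its pooled SD within times ran from 0.30 in WT to 0.42 in RERE. Each mouse gave 1 library, so spread between mice and between preparations cannot be told apart. The part of depth in this spread was not tested.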
